A study of Mus musculus with 62 samples.

Results

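Claudins and their tight junction partners were examined in KPC1199-EGFP, single cells of which were profiled by RNA-seq. The line is a pancreatic cancer of the mouse, on a C57BL\6 background, and expresses EGFP. The genes were chosen by symbol: Cldn1, Cldn2, Cldn3, Cldn4, Cldn7, Cldn12, Ocln, Tjp1 and F11r. Of these 9 genes 8 had a row in the table of 19112 genes, and Cldn4 had none, so Cldn4 was not measured. The cells came from 1 untreated adherent culture at passage 9. They were trypsinised, captured on a Fluidigm C1 chip and sequenced as 62 libraries. There was no second condition or culture, so all values below describe cells of this culture and no test between groups was possible.

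Libraries were kept where ERCC spike-ins, synthetic RNAs added in known amount, took under 20% of all counts. This left 50 libraries, in which the spike-in share ran from 0.190% to 1.83%. The other 12 libraries had 22.3% to 97.2% and are given apart. The 50 libraries held 2153895 to 12868806 gene counts, with a median of 7194657, and 6832 to 11068 detected genes. Levels are in CPM, counts per 1000000 gene counts, or as log2(CPM + 1) with the mean ± SD over cells. At the median depth 3 counts were worth 0.417 CPM. The labelled cell type was matched by its markers in part: 5 of 6 epithelial markers had counts in 25 or more libraries, and Epcam, the epithelial cell adhesion molecule, was in 18. The summed level of the 6 epithelial markers ran from 3599 to 24472 CPM. The 6 immune markers summed to between 0 and 33.3 CPM, the 6 fibroblast markers to between 0 and 75.022, the 4 measured endothelial markers to between 0 and 0.132, and the 3 measured acinar markers to between 0 and 64.6. At 0 in all 50 libraries were 4 of the immune, 3 of the fibroblast, 3 of the endothelial and 2 of the acinar markers, and 1 fibroblast marker had counts in 25 or more libraries. That marker, Col1a1, had a median of 0.229 CPM, below the worth of 3 counts, and a highest value of 1.01 CPM.

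Tight junctions seal the space between neighbouring epithelial cells near their apical side. Claudins are small membrane proteins that polymerise into the strands of the junction, and the mix of claudins sets which ions and solutes pass: most tighten the seal, while claudin-2 forms a channel for small cations and water. Occludin and the adhesion molecule JAM-A, encoded by F11r, lie in the same membrane, and ZO-1, encoded by Tjp1, ties them to the actin cytoskeleton. The duct cells of the pancreas carry such junctions.

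The cells carried a partial set of the strand-forming genes. Cldn3 and Cldn12 were found in nearly all cells, Cldn2 was missing from 10 cells and Cldn7 from 9, and Cldn1 was found in no cell. Of the 8 measured genes 7 had counts in 50% or more of the libraries, against 48.6% of all gene rows. With detection at 1 CPM the count was again 7 of 8, against 42% of all rows.

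**Figure D1:**
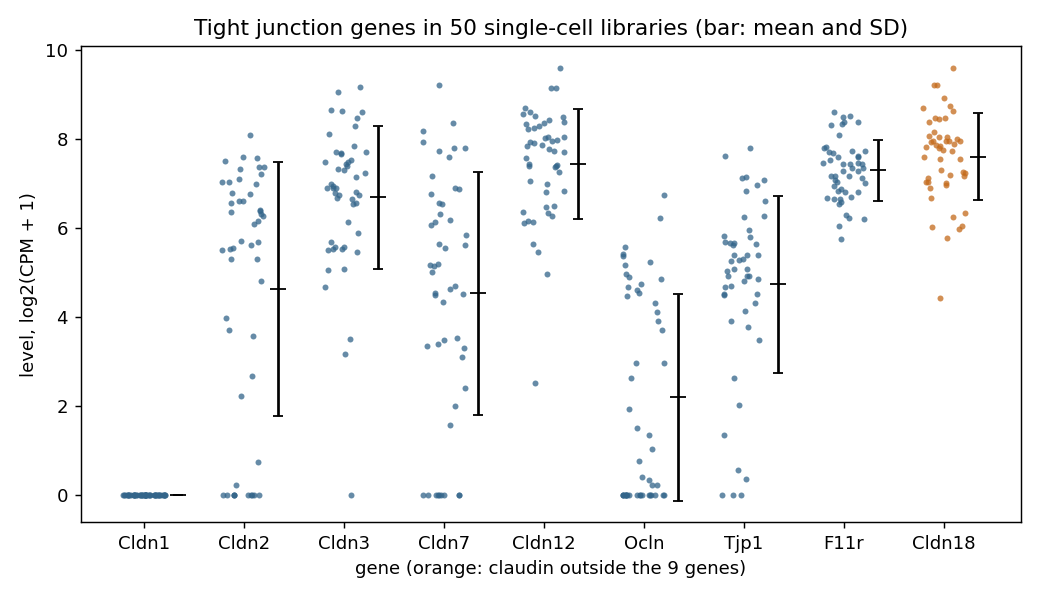
Level of each measured gene, log2(CPM + 1), in the 50 libraries; each point is 1 library and the bar gives the mean and SD. Cldn12 and F11r were above 0 in every library, Cldn2, Cldn7 and Ocln formed a cluster at 0 beside a broad upper range, and Cldn1 was at 0 throughout; Cldn18, in orange, is a claudin outside the 9 genes.

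Among the claudins that tighten the seal, Cldn3 was above 0 in 49 of 50 libraries (98%, exact Clopper-Pearson 95% interval 89.4 to 99.9). Its lowest value was 0 CPM, its median 118 CPM and its highest 574 CPM, in library 3, with a mean log2 level of 6.69 ± 1.61 (SD, n = 50). The single library at 0 was library 1, and the next lowest was at 3.16 on the log2 scale. Apart from library 1, then, every cell gave Cldn3 counts.

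Cldn7, which binds EpCAM at the cell surface, was above 0 in 41 of 50 libraries (82%, interval 68.6 to 91.4). It ran from 0 through a median of 32.8 CPM to 596 CPM in library 30, with a mean log2 level of 4.53 ± 2.73. That library held 15.7% of the summed CPM of the gene. The 9 libraries at 0 stood apart from a broad spread of the others, whose lowest value was 1.97 CPM.

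Cldn12, a claudin that lacks the usual PDZ-binding tail, was above 0 in all 50 libraries (100%, interval 92.9 to 100). Its lowest value was 4.77 CPM, its median 216 CPM and its highest 778 CPM, and its mean log2 level was 7.45 ± 1.23. The highest and lowest libraries, 6 and 10, were 163-fold apart. Library 10 stood alone, since the next lowest lay at 4.96 on the log2 scale against 2.53.

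Cldn1, a claudin of skin and many epithelia, had a count of 0 in all 50 libraries and in the other 12 as well. For 0 of 50 cells the exact Clopper-Pearson 95% interval of the share with counts reaches 7.11%, and 3 cells of 50, the limit used for a count of 0, would be 6%. Of all gene rows 20.8% were likewise at 0 in every one of the 50 libraries. Cldn4 is a close relative of Cldn3. Of the 1786 words of 31 bases in Cldn4 in GENCODE M21 transcripts, 5 also occur in 1 other gene.

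Cldn2, the channel-forming claudin, was above 0 in 40 of 50 libraries (80%, interval 66.3 to 89.97). It ran from 0 through a median of 51.2 CPM to 271 CPM in library 58, with a mean log2 level of 4.63 ± 2.85. Of the 40 libraries 38 were at 1 CPM or more. The libraries at 0 were thus set apart from most of the others.

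Ocln, which encodes the strand protein occludin, was found in the fewest libraries of the 7 detected genes. It was above 0 in 31 of 50 libraries (62%, interval 47.2 to 75.3) and at 1 CPM or more in 26. Its median was 1.31 CPM and its highest value 106 CPM, in library 55, with a mean log2 level of 2.20 ± 2.32. Occludin counts were thus at 0 in 19 libraries, and the other libraries were spread over a long range.

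Tjp1, the ZO-1 scaffold, was above 0 in 47 of 50 libraries (94%, interval 83.5 to 98.7). It ran from 0 through a median of 33.05 CPM to 221 CPM in library 32, at 4.73 ± 1.99. F11r, the JAM-A adhesion molecule, was above 0 in all 50, from 53.1 CPM through 159 CPM to 387 CPM in library 60, at 7.30 ± 0.68. F11r was the most even of the 7 genes, with its lowest and highest libraries 7.29-fold apart.

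No F11r count in the 50 libraries was a whole number within 1e-06, whereas 100% of Cldn2 and Cldn3 counts above 0 were. Fractional values arise where an estimator such as kallisto divides reads between sequences. In GENCODE M21, 24 of the 2457 words of 31 bases in the F11r transcript also occur in transcripts of 2792 other genes. In Cldn3 15 of 1229 words are shared, with 2 other genes, and all its counts were whole. What made the F11r counts fractional was not tested. Cldn12 counts were whole in 46% of the libraries although none of its words was shared.

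Levels of different genes were compared per kilobase of the longest coding GENCODE M21 transcript, since longer transcripts give more counts. In this scale Cldn3 came first, with a median of 94.0 CPM per kilobase and a mean of 6.37 ± 1.58 for log2(CPM per kilobase + 1). F11r followed at 5.98 ± 0.67, Cldn12 at 5.58 ± 1.17, Cldn7 at 4.21 ± 2.59, Cldn2 at 3.46 ± 2.24, Tjp1 at 2.45 ± 1.29 and Ocln at 1.296 ± 1.49. Differences between neighbours were computed with Cldn18 and Cldn6, claudins outside the chosen genes, placed in this order. No neighbours there differed by more than the spread of their difference over libraries. Cldn3 exceeded F11r in 35 of 50 libraries, with a mean difference of 0.39 ± 1.69 on the log2 scale. Cldn12 and Cldn7 were not neighbours there, nor were Tjp1 and Ocln, and the spread of their differences was not computed. Among Cldn2, Cldn3, Cldn7 and Cldn12, the gene with the highest level per kilobase was Cldn3 in 28 libraries, Cldn12 in 11, Cldn7 in 8 and Cldn2 in 3. With the median length of a gene's coding transcripts in place of the longest, the counts were 19 for Cldn3, 13 for Cldn2, 10 for Cldn7 and 8 for Cldn12. The median length of Cldn2 is 755 bases and its longest 3044, and by the median its mean level lay above that of Cldn7. Cldn3 led most often by both lengths, and the place of Cldn2 moved with the length used.

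The number of these genes found in a cell varied from 4 to 7. Of the 8 measured genes 7 were above 0 in 23 libraries, 6 in 15, 5 in 9 and 4 in 3. Cldn2, Cldn3, Cldn7 and Cldn12 were all above 0 in 33 of 50 libraries. Cldn2 alone of the 4 was at 0 in 7 libraries, Cldn7 alone in 6, and both in 3. The remaining library was library 1, at 0 for Cldn3. The 3 libraries with 4 genes, 19, 31 and 54, were the same ones that were at 0 for both Cldn2 and Cldn7.

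Cell-to-cell spread was set against that of genes of like mean level. For each of 12012 genes above 0 in at least 10 libraries, the squared coefficient of variation was read against the trend over all of them. Cldn7 lay at percentile 97.9 of that residual, Cldn3 at 93.6, Cldn12 at 90.4, Cldn2 at 84.1, Tjp1 at 74.2, Ocln at 55.8 and F11r at 38.4. The 4 claudins were thus above the occludin, ZO-1 and JAM-A genes in this order, though no test of that difference was made. Groups of 12 consecutive label numbers, the only layout the labels give, held 5.17% to 16.9% of the variance of the 7 genes. A split into 8 groups of 5 to 7 libraries gives some share even where position has no effect. No baseline for that share was computed. The r of their levels with the number of detected genes ran from -0.13 for Cldn12 to 0.35 for Cldn2.

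The 7 detected genes did not move as a block across cells. Over the 21 pairs of the 7 detected genes the median Pearson r of log2 levels was 0.07, and the range was -0.22 to 0.42 (n = 50 libraries that share 1 culture and 1 chip type). The median over all pairs of 9282 genes above 0 in at least 50% of libraries was 0.03, with 5th and 95th percentiles of -0.24 and 0.29. An r of 0.3 or more was found in 2 of the 21 pairs, against 4.4% of all gene pairs. The 2 pairs were Cldn2 with Ocln, at 0.42, and Cldn7 with Cldn12, at 0.30. Over the libraries with both genes above 0 these values were 0.23 (n = 29) and 0.03 (n = 41), so both were lower without the cells at 0.

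**Figure D2:**
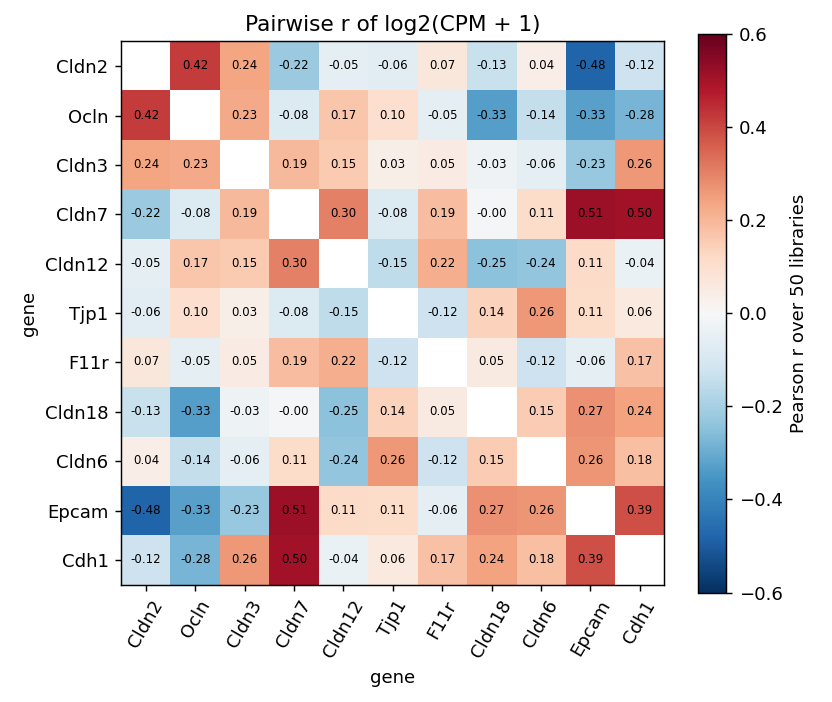
Pearson r of log2(CPM + 1) for each pair of genes over the 50 libraries, printed in each cell of the matrix and coloured from blue (negative) to red (positive). Cldn7 shows its highest values with Epcam (0.51) and Cdh1 (0.50), and Cldn2 its lowest with Epcam (-0.48).

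Cldn2 and Cldn7, the claudins each at 0 in a part of the cells, stood in opposite relation to Epcam. Epcam and Cdh1, which encodes the adhesion protein E-cadherin, come from lists of partner genes, and these pairs were singled out after their values were seen. Epcam itself ran from 0 in 32 libraries to 1016 CPM in library 17. Cldn7 had r = 0.51 with Epcam and 0.50 with Cdh1. Cldn2 had r = -0.48 with Epcam and -0.12 with Cdh1, and Ocln had -0.33 and -0.28. Between Cldn2 and Cldn7 themselves r was -0.22, inside the central range of all gene pairs.

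The Epcam relations were also read in cells with counts of both genes. Over the libraries with both genes above 0, r was 0.60 for Cldn7 with Epcam (n = 17) and -0.55 for Cldn2 with Epcam (n = 12). The 12 include libraries 47 and 35, with Cldn2 at 0.24 and 0.75, and library 45, with Epcam at 0.79. Library 45 is also among the 17. These log2 levels are under 1 CPM, and r without these libraries was not computed, so a relation apart from near-zero values is not shown. With the number of detected genes regressed out the values were 0.51 and -0.45, within groups of label numbers 0.52 and -0.50, by Spearman rank 0.56 and -0.40, and without the 2 libraries farthest from the claudin's median 0.50 and -0.57. For Cldn7 with Cdh1 the same 4 settings gave 0.50, 0.51, 0.53 and 0.44.

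Counts of cells restate these values for the same 50 libraries and add no separate support. Of the 18 libraries with Epcam counts 17 had Cldn7 (94.4%) and 12 had Cldn2 (66.7%). Of the 32 libraries without Epcam 24 had Cldn7 (75%) and 28 had Cldn2 (87.5%). In the 5 libraries of highest Epcam, namely 17, 30, 47, 32 and 35, the log2 level of Cldn7 was 8.37, 9.22, 7.59, 8.18 and 7.81. In the same libraries Cldn2 stood at 0, 0, 0.24, 0 and 0.75. These 5 cells were therefore high in Cldn7 and at or near 0 in Cldn2, but the cells next in Epcam were not alike. Libraries 46, 7, 5, 44 and 28 had Cldn2 at 6.61, 3.99, 5.31, 5.69 and 6.31. Their Cldn7 stood at 6.88, 7.79, 0, 5.84 and 1.57. Libraries 14, 41 and 37, lower in Epcam than these, had Cldn2 at 0.

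**Figure D3:**
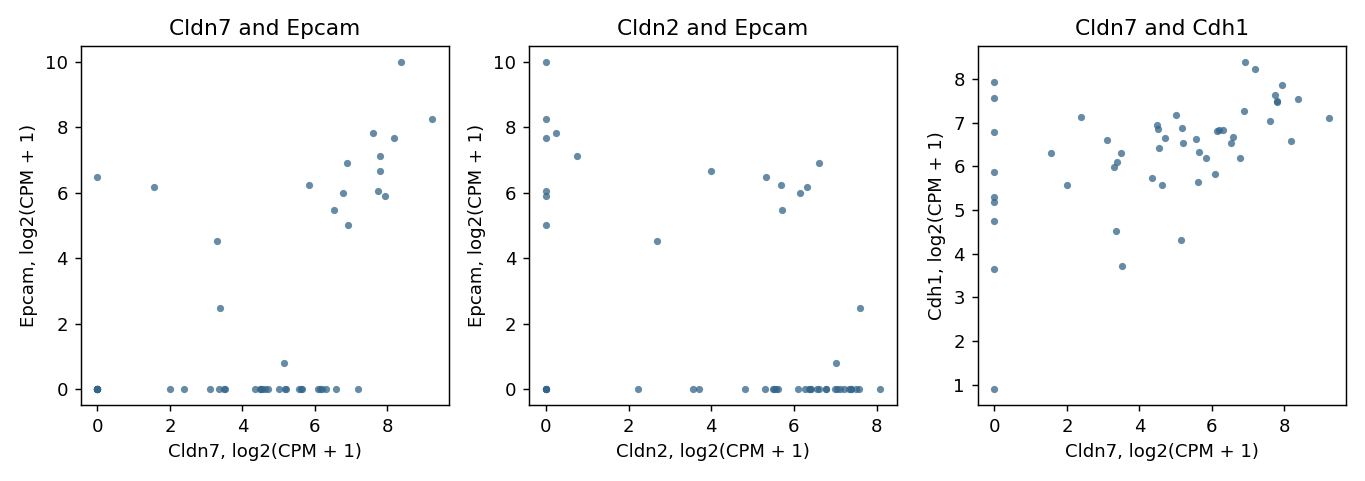
Log2(CPM + 1) of Epcam (vertical) against Cldn7 (left) and against Cldn2 (middle), and of Cdh1 against Cldn7 (right), 1 point a library, n = 50. The 5 libraries of highest Epcam lie at the upper right of the left panel and at the upper left of the middle panel.

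**Figure D4:**
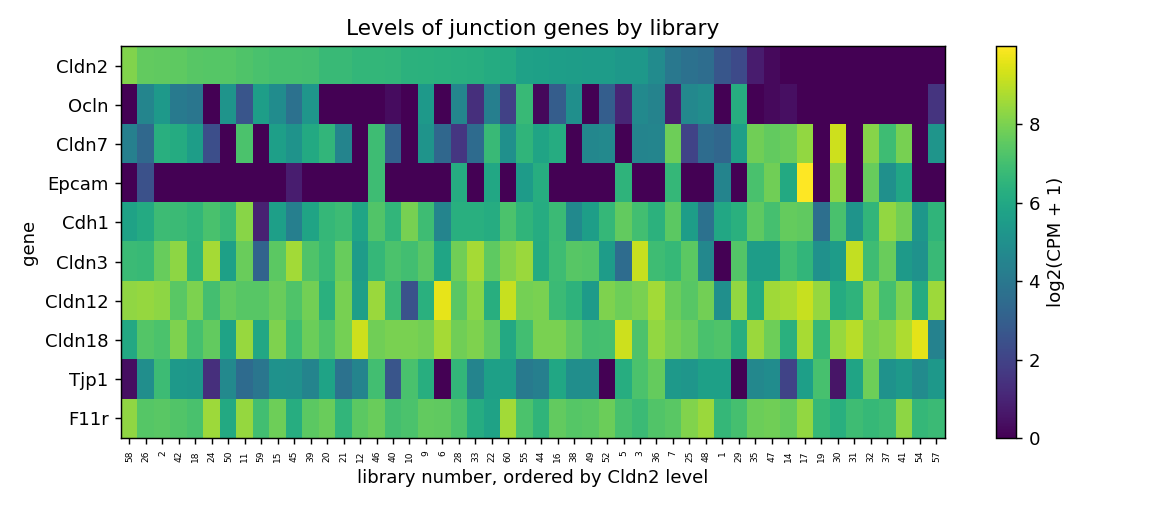
Levels of 10 junction genes, log2(CPM + 1) by colour, in the 50 libraries, ordered from the highest Cldn2 on the left to the libraries at 0 on the right. Epcam is at 0 in most libraries on the left, while Cldn12, Cldn18 and F11r are present across the whole width.

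Because Cldn2, Cldn7 and Epcam formed this pattern, the 250 bases before the most upstream RefSeq start of each are shown (RefSeq, GRCm38.p6, plus strand, 5′ to 3′). The expression table was made on build mm9, and only gene symbols link it to these windows, which are chrX:139800558-139800807, chr11:69964529-69964778 and chr17:87635729-87635978. Capitals mark matches to TATAAA, the core of the TATA box, or to CAGGTG, the E-box bound by Snail and Zeb factors, on either strand. The windows read as follows.
Cldn2: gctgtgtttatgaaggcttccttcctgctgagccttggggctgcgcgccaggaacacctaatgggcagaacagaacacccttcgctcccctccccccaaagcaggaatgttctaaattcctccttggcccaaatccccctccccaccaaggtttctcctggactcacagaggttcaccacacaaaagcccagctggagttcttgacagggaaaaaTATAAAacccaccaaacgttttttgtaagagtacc
Cldn7: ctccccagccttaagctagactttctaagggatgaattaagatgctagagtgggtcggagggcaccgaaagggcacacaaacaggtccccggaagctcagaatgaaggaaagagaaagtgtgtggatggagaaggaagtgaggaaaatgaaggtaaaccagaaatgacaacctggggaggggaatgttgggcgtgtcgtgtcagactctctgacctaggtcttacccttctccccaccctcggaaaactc
Epcam: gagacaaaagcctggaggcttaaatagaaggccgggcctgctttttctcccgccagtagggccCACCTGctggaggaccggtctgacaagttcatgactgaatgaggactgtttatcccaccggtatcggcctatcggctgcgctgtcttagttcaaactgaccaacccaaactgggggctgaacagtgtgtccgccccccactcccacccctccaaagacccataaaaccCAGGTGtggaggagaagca
The Cldn2 window held TATAAA, the Epcam window held CAGGTG on each strand, and the Cldn7 window printed held neither. A downstream RefSeq start of Cldn7 has its own window, chr11:69965171-69965420, which held CAGGTG 2 times. CAGGTG was found in 2 of the 9 most upstream windows of the tight junction genes, those of Cldn4 and F11r. Over all 13 windows of these genes it was in 4, with the downstream windows of Cldn7 and Ocln added, against 17.2% of all 32851 RefSeq windows of this length, of which a gene can have several. TATAAA was found in 1 of the 13, that of Cldn2, against 12.4%. The grainyhead motif AACNGGTT was in 0 of 13, against 1.79%. The motifs do not overlap each other in the windows printed, and a match is a description of letters, not of binding.

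For each of the 7 detected genes the most similar patterns were sought among the 9282 genes by Pearson r over the 50 libraries. For Cldn2 they were Cd63, a tetraspanin of endosomes (0.68), and the membrane protein genes Tmem176a (0.68) and Tmem176b (0.67), with Nop16, a ribosome assembly factor, at the other end (-0.50). For Cldn3 they were Abcb1a, a drug efflux transporter (0.68), Leprot (0.61) and 4930461G14Rik (0.60), with Atp5g1, an ATP synthase subunit, lowest (-0.65). Without the 2 libraries farthest from the Cldn3 median, one of them library 1, the first 2 values were 0.46 and 0.37. For Cldn7 they included the scaffold gene Homer2 (0.61) and Crip1 (0.57), with the growth factor binding gene Igfbp4 lowest (-0.58).

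The other 4 genes had weaker best matches. They were Lsm10 (0.56), Zfr (0.56) and Mif4gd (0.54) for Cldn12, with Smarca5 lowest (-0.55). Without the 2 libraries farthest from the Cldn12 median, the values of Lsm10, Zfr and Mif4gd were 0.29, 0.46 and 0.28. For Ocln they were H1fx (0.55), Tuba4a (0.55) and Hhex (0.55), with Arhgdig lowest (-0.49). For Tjp1 they were Sgcb (0.54), Dnajc25 (0.53) and Sf3b1 (0.53), with Pdia3 lowest (-0.52). For F11r they were Tbc1d15 (0.47), the polarity gene Pard6b (0.46) and Clec16a (0.44), with 1810032O08Rik lowest (-0.50). As a measure of what a best match means here, the median over all 9282 genes of their highest r with any other gene was 0.59. Only Cldn2, Cldn3 and Cldn7 were above it, and the best match of F11r lay at percentile 0.98 of the best matches of all genes.

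Beyond the 9 genes, 10 of the 27 other listed claudins had a row, and 4 passed the 50% mark, below the share of all gene rows. Cldn18, a claudin of stomach and lung epithelium, was above 0 in all 50, from 20.6 CPM through a median of 223 CPM to 775 CPM, at 7.60 ± 0.98. Per kilobase of its longest transcript it stood at 5.57 ± 0.96, level with Cldn12, and by median transcript length, 1580 bases, it was first of all at 6.95 ± 0.98. Groups of 12 label numbers held 39.2% of the variance of Cldn18, more than of any of the 7 genes, and what lies behind that share was not tested. Its r with the 7 genes ran from -0.33 with Ocln to 0.14 with Tjp1. Cldn18 was therefore found in as many libraries as Cldn12.

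Cldn6, a claudin of embryonic epithelia, was above 0 in 26 libraries, with a median of 0.157 CPM and a highest value of 138 CPM. Cldn19 was above 0 in all 50 but stayed between 0.895 and 5.98 CPM. Cldn34c1 was in 28, with a highest value of 3.76 CPM, and 24.7% of its 31-base words occur in other genes. Counts for Cldn19 were whole in 4% of libraries, and it was above 0 in all 12 spike-in-rich libraries too, at a median of 200.3 CPM. Cldn20 and Cldn23 were in 2 libraries each, and Cldn8, Cldn10 and Cldn13 in none.

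Other parts of the junction were read against the share of all gene rows past the same mark. Of 10 measured membrane proteins of the tight junction 5 passed the 50% mark, a share near the 48.6% of all gene rows, and 3 did so at 1 CPM, against 42%. They were led by Cxadr, the coxsackievirus and adenovirus receptor, at 7.13 ± 1.11, by Lsr, a protein of tricellular contacts, at 5.81 ± 1.94, and by the polarity protein Crb3 at 3.74 ± 2.31. Of 21 plaque and polarity genes 15 passed the same mark, led by Ybx3, a Y-box factor that binds ZO-1, at 8.58 ± 0.70, the kinase Prkci at 5.94 ± 1.82 and Arhgef2 at 5.55 ± 1.12.

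Of 13 adherens junction genes 11 passed the 50% mark, against 48.6% of all gene rows. The catenin genes Ctnnb1 and Ctnna1 stood at 9.01 ± 0.68 and 7.81 ± 0.72, and Afdn, which encodes afadin and has the row name Mllt4, at 6.76 ± 0.70. Of 10 desmosome genes 4 passed, below the 48.6% of all gene rows, led by Perp at 7.02 ± 1.26, Pkp2 at 3.08 ± 2.52 and Dsg2 at 2.29 ± 2.29. Dsg1a, Dsc3 and Pkp3 were in 0 of 50. Among proteins that bind claudins, the tetraspanin genes Cd9 and Cd81 stood at 9.92 ± 0.53 and 4.91 ± 3.41, and Epcam at 2.19 ± 3.19.

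**Figure D5:**
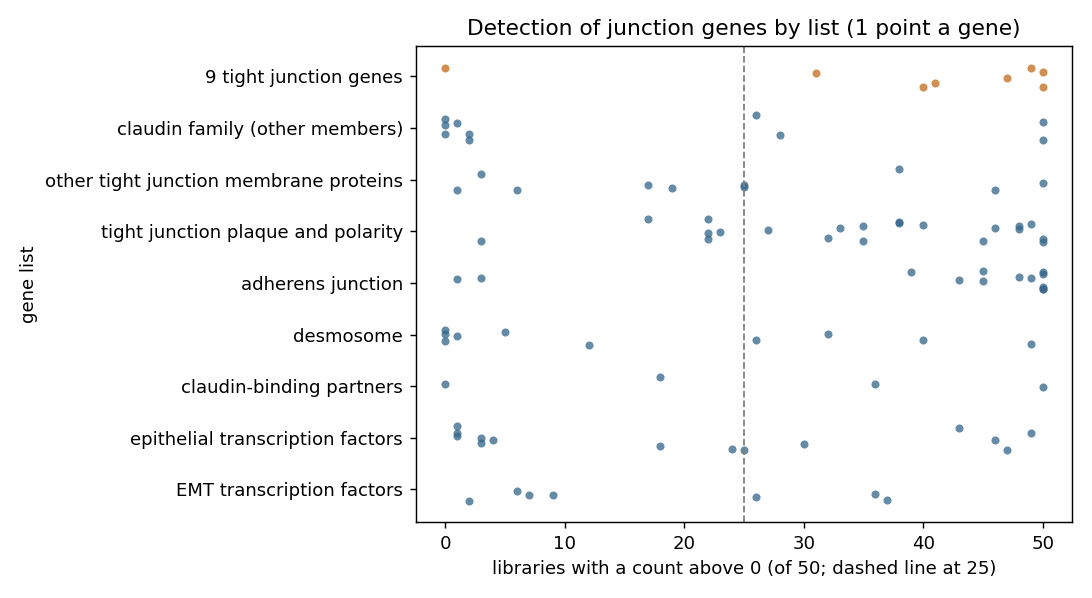
Number of the 50 libraries with a count above 0 for each measured gene, 1 point a gene, by list; the dashed line marks 25 libraries. Most adherens junction genes lie at the right, while the other claudins were either in at most 2 libraries or in 26 and more.

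The 12 spike-in-rich libraries held few counts of these genes. They had a median of 362304 gene counts. Above 0 were Cldn7, Cldn12, Tjp1 and F11r in 4 of 12 each, Cldn3 in 3, Cldn2 in 2, Ocln in 1 and Cldn1 in 0. Library 43, with 9041 detected genes the fullest of the 12, gave 82.2 CPM for Cldn2, 71.9 for Cldn3, 66.8 for Cldn7, 51.4 for Cldn12, 28.3 for Tjp1 and 127 for F11r. Those 6 values lay inside the ranges of the 50 libraries.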

How the data were processed

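Estimated counts per gene symbol were made by the authors with kallisto, and build mm9 is named, per the submitters' processing notes. The sources used here give no version, annotation or step from transcripts to genes. Of the deposited values above 0, 66.2% were whole within 1e-06. From these, CPM was computed over 19112 gene rows without the 65 spike-in rows, unrounded, with a pseudocount of 1 for log2. No count model was fitted, no doublet caller was run, and cells were not treated as replicates. Intervals of shares are exact (Clopper-Pearson, 95%) and reflect only how many cells were sampled. Variability was the residual over a lowess trend (fraction 0.3). The computations were tested on simulated data (statsmodels 0.14.6, numpy 2.4.6, pandas 2.3.3, scipy 1.17.1).

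The genes, lists and rules were chosen with earlier results of these data known. Text names every member, other claudins above 0 in at least 50% of libraries and the next 2, the 3 highest of each further list with genes at 0 where at most 5, Epcam, and the 3 highest and 1 lowest r per member; some genes these rules name are not reported here. Pair settings, the second transcript length and motif counts over all starts were added after the data were seen. Symbols with an older name were matched through RefSeq (GRCm38.p6) synonyms. A protein table was not used here.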

Additional observations from a re-analysis of the deposited data

Results flagged for a closer look

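Counts in the 12 libraries outside the spike-in limit drew attention because they lie in data that the main description does not use and exceed 3 counts, the number taken as the limit of a count of 0. Cldn7 exceeded it in 4 of the 12 libraries, Cldn3, Cldn12, Tjp1 and F11r in 3 each, and Cldn2 in 1. The highest values were 1852 CPM for F11r and 722 CPM for Cldn7, both in library 62, 1782 CPM for Tjp1 in library 13 and 401 CPM for Cldn12 in library 56. The values of F11r, Cldn7 and Tjp1 exceed the highest in the 50 libraries, and that of Cldn12 does not. The 12 libraries held 112196 to 1133747 gene counts, against 2153895 to 12868806 in the 50. The same count thus gives a higher CPM in the 12.

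Cldn19 exceeded 3 counts in 12 of the 12. Its counts there ran from 36.6 to 165 with a median of 68.5, against 4.14 to 38.8 with a median of 18.1 in the 50 deeper libraries.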

How the results depend on the processing

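Of 129 values under alternatives, 116 moved by less than the spread used as a measure, and 16 of the 19 for summary results. Shares, counts and percentiles among these 129 cannot be negative, and none of the r values among them changed sign. Some pairs outside the 129 did so over the libraries with both genes above 0. Cldn3 with Cldn7 went from 0.19 to -0.30 (n = 40), and Cldn12 with Ocln from 0.17 to -0.24 (n = 31). Over all 62 libraries the median pairwise r of the 7 genes was 0.35, against 0.28 over all gene pairs there. Of the 21 genes of most similar pattern 5 remained among the first 3 by Spearman rank and 6 without the 2 libraries farthest from each member's median, so single names should be read with that limit. With detection at 1 CPM the other claudins above the 50% mark went from 4 to 2 and the other membrane proteins from 5 to 3. Thinned to 1000000 counts, Cldn2 was found in 78% of libraries, Cldn7 in 80%, Ocln in 56% and Tjp1 in 90%. In the order per kilobase of the 7 genes together with Cldn18 and Cldn6, 3 of 9 kept their place by median transcript length. Cldn18 moved to first place there. No paired analysis was possible because all libraries belong to 1 group.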

Other observations

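Transcription factors known to act on junction genes were read as a list beside them. Of 14 epithelial factors 6 had counts in 25 or more of the 50 libraries, no larger a share than the 48.6% of all gene rows, led by Elf3 at 5.86 ± 2.14, Klf5 at 5.403 ± 1.83 and Hnf4a at 5.29 ± 1.90 in log2(CPM + 1). Of 7 factors of epithelial-mesenchymal transition 3 passed, again no larger a share, with Zeb1 at 2.91 ± 2.47, Twist2 at 2.70 ± 2.79 and Snai2 at 2.33 ± 2.56, in 36, 26 and 37 libraries. With detection at 1 CPM 4 of the 14 epithelial and 2 of the 7 transition factors passed, against 42% of all gene rows. Snai2 was at 1 CPM or more in 23 libraries, with a median of 0.846 CPM. The grainyhead factor Grhl2 had counts in 3 libraries, and it was singled out for that value.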
